A study of Mus musculus with 6 samples.

Results

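Red cells owe their shape to a protein skeleton under the membrane and their work to a small set of transporters, surface proteins and enzymes. Of 33 genes of this kind, 22 could be read in fetal livers of Rb null and wild type mouse embryos. The genes were named by symbol as a red cell module, with earlier results of these arrays known, and each took every probe set that the array's annotation assigns to that symbol alone. This gave 33 probe sets of the 12488 on the array, and 22 of its 8251 genes. The other 11 named genes, which are Sptb, Epb41, Add2, Tmod1, Gypc, Kel, Xk, Ermap, Blvrb, Trim10 and Ahsp, had no such probe set and were not analysed here.

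The embryos were 3 Rb null, which lack the retinoblastoma gene, and 3 wild type, all at embryonic day 12.5, untreated, and bred from 129sv parents heterozygous for Rb. Null embryos inherit the loss through the germ line, so the gene is missing from every tissue and not only from the liver. Whole livers were dissected and dispersed in saline, and 6 ug of total RNA from each embryo were labelled with biotin for its own Affymetrix array. No sorting of cell types is described in the labels.

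In the mid-gestation liver, erythroblasts develop from dividing precursors to small haemoglobin-filled cells that expel their nucleus. Late on this path they build the membrane skeleton, a mesh of spectrin and short actin filaments that ankyrin, protein 4.2 and the adducin and dematin junctions tie to the anion exchanger and to the Rh complex. They also make the enzymes of red cell metabolism and blood group proteins. The retinoblastoma protein holds back cell division by binding E2F factors, and its loss in mouse embryos is known to cause anaemia.

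Values are the MAS5 signals that the authors deposited, the linear brightness of each probe set, and the 2% trimmed means of the 6 arrays lay between 500.22 and 500.25. Fold changes are differences of log2(signal + 50.02), Rb null minus wild type, given ± SE with n = 3 embryos per genotype, and the added offset understates the change of dim genes. Adjusted p values are those of limma's moderated test after Benjamini-Hochberg adjustment over 6793 tested probe sets, and "lower", "higher", "fell" and "rose" are used only below 0.05. A gene stands by its brightest probe set unless another is named. Rb1 itself read 139, 142 and 127 in the Rb null embryos, against 791, 754 and 706 in the wild type embryos, though the labels do not say where its probes lie relative to the deleted part. The number of arrays limits the precision of every value.

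Most of the red cell genes were lower in Rb null livers. All 22 passed the filter on dim signals, and 17 of them fell and 2 rose, while 3 stayed short of the threshold. Among all 5273 tested genes 9.50% were called lower and 13.1% higher. The same 17 members had all 3 Rb null embryos below all 3 wild type embryos, as had 17.6% of all tested genes, and the other way round held for 2 members and 23.5% of all tested genes. The median log2 fold change was -0.41 over the 22 members and 0.02 over all tested genes. The falls ran from Bpgm, the enzyme that makes bisphosphoglycerate (-1.46), to Bsg, which encodes basigin (-0.20), and the rises were those of Alox15 (0.90) and Aqp1 (0.61). Alox15 passed the filter only through its Rb null values. In RNA from whole livers, fewer cells of a type and less RNA per cell cannot be told apart.

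Bright probe sets leaned lower in the Rb null arrays, and many members are bright. The 527 genes in the brightest 10% had a median log2 fold change of -0.15, with 177 called lower and 33 higher. The genotypes did not overlap for 255 of these genes with Rb null lower, and for 59 with Rb null higher. Of the 22 members 14 lie among these 527 genes, with a median of -0.41 and 12 called lower. Those bright genes, and not all tested genes, are the nearer comparison for these 14 members. The 8 dimmer members had a median of -0.34, with 5 called lower and 2 higher. Among all tested genes, bright ones included, 9.50% were called lower and 13.1% higher. The median signal of an array was 197.1 to 202.8 in Rb null livers and 175.7 to 186.1 in wild type livers, and scaling the arrays to equal medians gave 18 members lower and 2 higher, with 20.7% of all tested genes lower and 6.94% higher. Quantile and cyclic loess normalization take out such a lean, and under cyclic loess the change was -1.44 for Bpgm, -0.52 for Epb42, -0.50 for Hebp1, -0.49 for Dmtn, -0.46 for Ank1 and -0.38 for Mpp1. Values for members whose fall shrank more or whose call was lost stand with those genes. By embryo, the median member lay -0.45, -0.41 and -0.32 from the wild type mean on the log2 scale in Rb null embryos 1, 2 and 3, against -0.03, -0.01 and 0.02 in the wild type embryos. Rb null embryo 3 stood closest to wild type and every Rb null embryo below every wild type embryo.

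**Figure D1:**
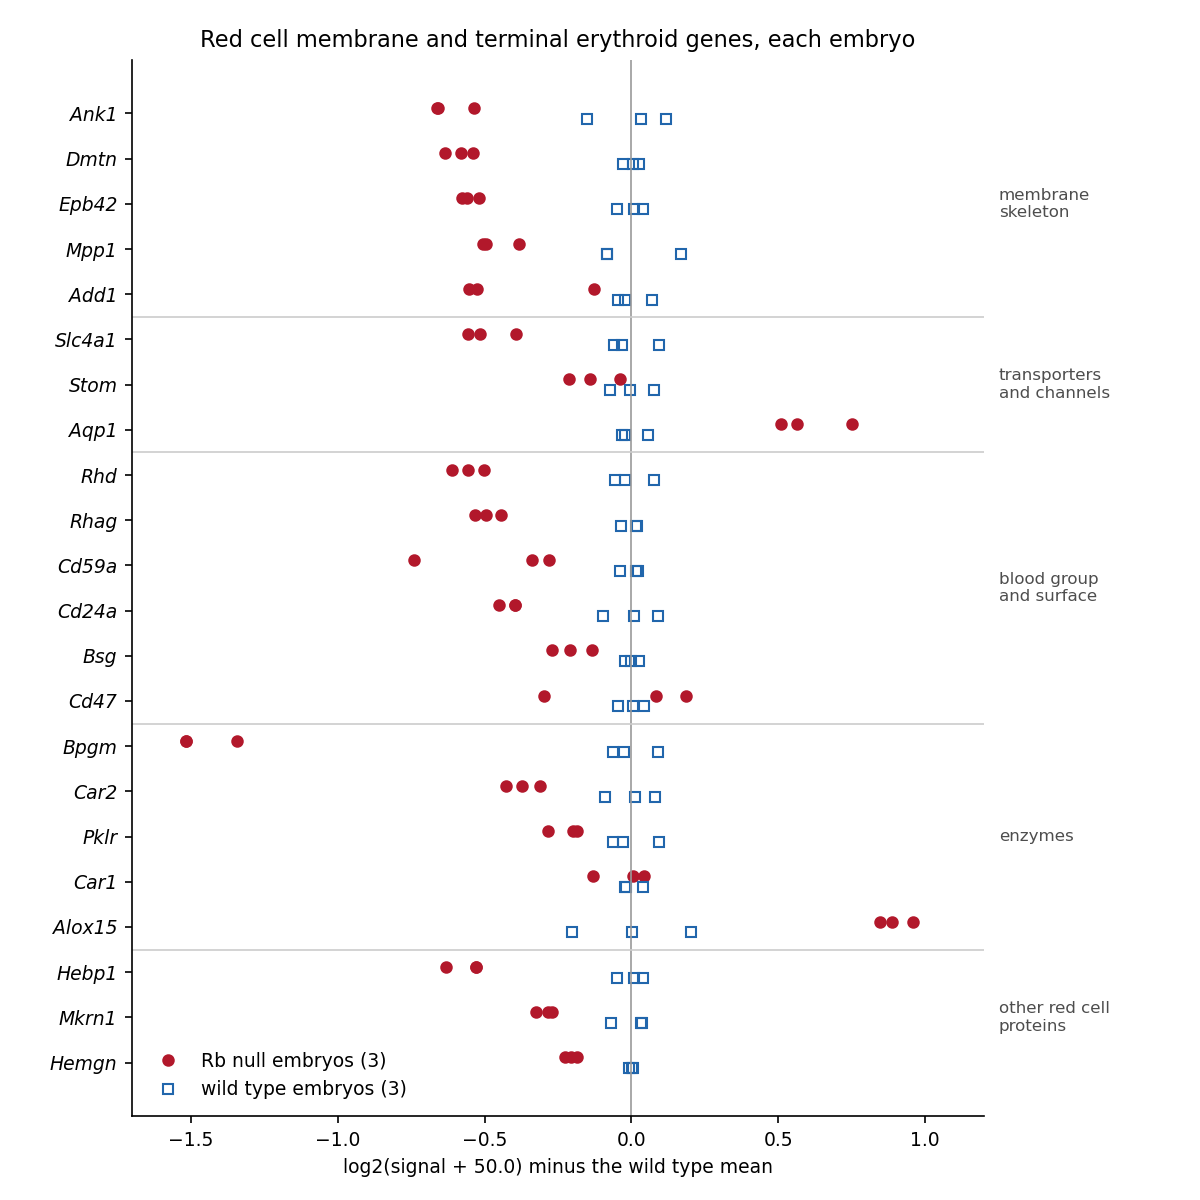
Each of the 22 genes in each embryo, as log2(signal + 50.02) minus the gene's wild type mean on the horizontal axis, grouped by role. Filled circles are the 3 Rb null embryos and open squares the 3 wild type embryos; the circles lie left of all squares for 17 genes and right of them for Alox15 and Aqp1.

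**Figure D2:**
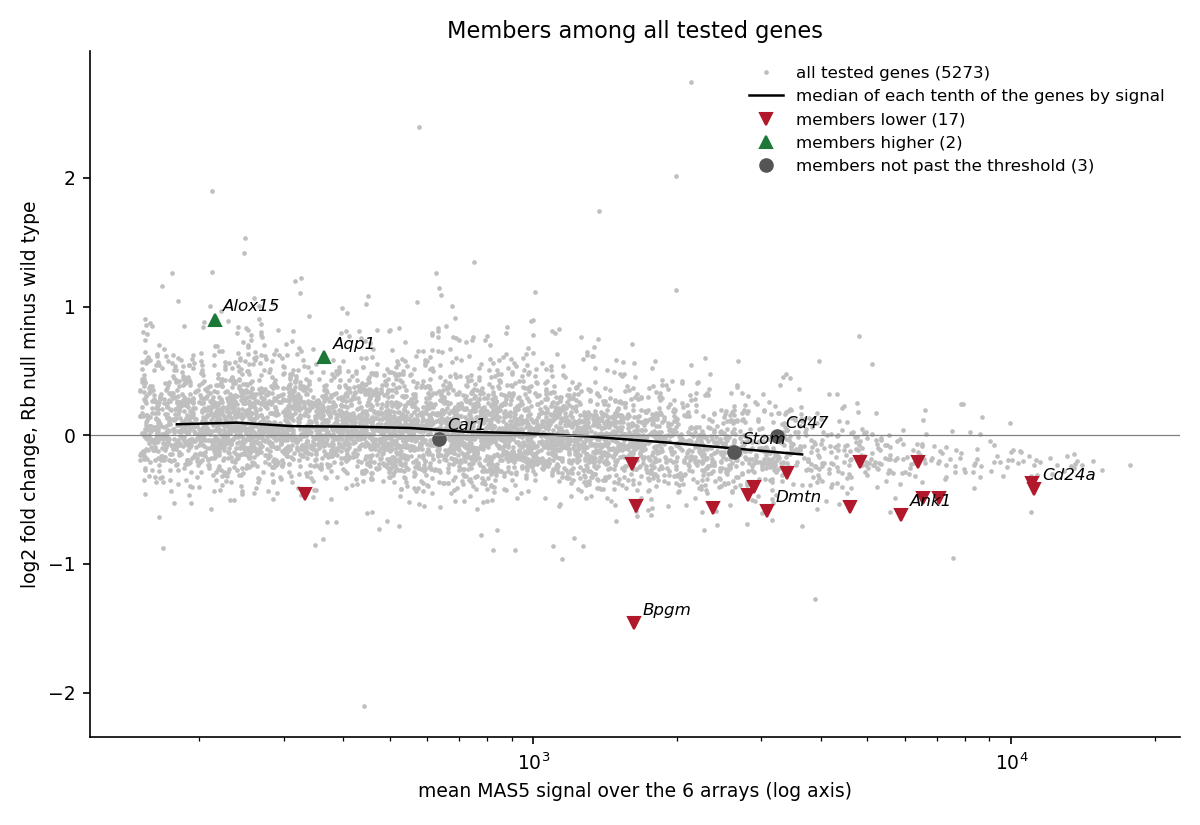
Log2 fold change (Rb null minus wild type) on the vertical axis against mean signal over the 6 arrays (log axis) for all 5273 tested genes in grey, with the members marked by call. The line joins the medians of bins of genes by signal; Bpgm lies far below it, at -1.46.

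The sequence before the starts of these genes was read for the letters that a pair of erythroid factors are known to bind. GATA1 binds GATA letters, searched as AGATAA or TGATAA, and KLF1 binds CACCC boxes, searched as CCNCNCCC and, within it, CCACACCC, all on both strands. RefSeq promoter windows of mouse build GRCm38.p6 were matched by symbol for 14 of the 22 members, and the 250 bases before the start were used. GATA letters stood in the windows of 6 of these 14 genes (42.9%), against 18.8% of the 27025 genes in the table. CCNCNCCC stood in 8 (57.1%), against 48.5% of all genes, and CCACACCC in 1, Cd59a (7.14%), against 3.68%. A match describes the letters only and shows no bound site. The members were chosen as red cell genes, and whether the letters bear on their fall was not tested.

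The windows below are those of the 6 genes with GATA letters, of Bpgm, the member that fell most, and of Aqp1, which rose. Capitals mark GATA letters and CCNCNCCC, on either strand, and each window runs 5′ to 3′ on the strand of its gene. Pklr has more than 1 window in the table, and the one with GATA letters is shown.
Rhd (chr4:134864286-134864535, plus strand): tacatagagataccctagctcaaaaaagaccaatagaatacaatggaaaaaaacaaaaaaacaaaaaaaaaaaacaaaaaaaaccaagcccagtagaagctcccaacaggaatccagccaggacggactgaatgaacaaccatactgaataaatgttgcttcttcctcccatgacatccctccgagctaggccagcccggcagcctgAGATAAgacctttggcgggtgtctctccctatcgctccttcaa
Rhag (chr17:40810899-40811148, plus strand): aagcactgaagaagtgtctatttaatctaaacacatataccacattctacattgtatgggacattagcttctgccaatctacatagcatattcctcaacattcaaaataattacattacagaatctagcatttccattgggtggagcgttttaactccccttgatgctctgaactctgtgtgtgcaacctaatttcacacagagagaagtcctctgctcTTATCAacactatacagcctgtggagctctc
Epb42 (chr2:121036878-121037127, minus strand): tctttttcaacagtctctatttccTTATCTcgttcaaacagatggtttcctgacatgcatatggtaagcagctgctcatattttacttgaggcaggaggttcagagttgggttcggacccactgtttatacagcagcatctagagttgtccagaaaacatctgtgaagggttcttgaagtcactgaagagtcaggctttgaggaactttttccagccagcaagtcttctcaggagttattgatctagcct
Mpp1 (chrX:75131017-75131266, minus strand): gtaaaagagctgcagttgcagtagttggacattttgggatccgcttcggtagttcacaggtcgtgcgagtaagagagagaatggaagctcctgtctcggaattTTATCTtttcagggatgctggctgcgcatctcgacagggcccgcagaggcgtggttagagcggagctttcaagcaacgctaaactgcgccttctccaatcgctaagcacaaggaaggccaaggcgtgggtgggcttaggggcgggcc
Pklr (chr3:89135892-89136141, plus strand): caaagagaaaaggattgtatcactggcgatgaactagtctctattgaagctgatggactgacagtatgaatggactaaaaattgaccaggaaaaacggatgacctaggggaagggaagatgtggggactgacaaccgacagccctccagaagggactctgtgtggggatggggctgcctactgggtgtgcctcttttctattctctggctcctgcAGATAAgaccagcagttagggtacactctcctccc
Hemgn (chr4:46404184-46404433, minus strand): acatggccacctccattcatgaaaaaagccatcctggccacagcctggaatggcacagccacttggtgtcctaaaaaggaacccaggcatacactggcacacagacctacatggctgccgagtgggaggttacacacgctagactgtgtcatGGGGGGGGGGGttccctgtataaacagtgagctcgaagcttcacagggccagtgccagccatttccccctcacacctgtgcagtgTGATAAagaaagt
Bpgm (chr6:34476106-34476355, plus strand): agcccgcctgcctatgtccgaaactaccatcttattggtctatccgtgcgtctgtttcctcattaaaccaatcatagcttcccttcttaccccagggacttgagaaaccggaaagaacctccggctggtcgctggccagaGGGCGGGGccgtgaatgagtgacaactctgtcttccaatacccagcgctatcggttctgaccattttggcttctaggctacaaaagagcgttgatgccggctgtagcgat
Aqp1 (chr6:55336049-55336298, plus strand): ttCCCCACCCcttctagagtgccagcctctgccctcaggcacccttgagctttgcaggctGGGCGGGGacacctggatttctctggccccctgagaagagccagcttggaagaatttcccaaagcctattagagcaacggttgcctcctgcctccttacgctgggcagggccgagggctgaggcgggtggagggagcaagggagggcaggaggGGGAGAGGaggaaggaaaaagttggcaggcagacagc

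The GATA letters lay near the start in Rhd, Pklr, Rhag and Hemgn and farther from it in Mpp1 and Epb42. They stood 43 to 38 bases before the start in Rhd, 35 to 30 in Pklr, 31 to 26 in Rhag and 13 to 8 in Hemgn, whereas in Mpp1 they stood 147 to 142 and in Epb42 226 to 221 bases before it. The Bpgm window held no GATA letters and 1 match to CCNCNCCC, and the Aqp1 window none and 3. The matches in a run of G in the Hemgn window overlap each other. All 6 genes with GATA letters were among the members that fell, but so were Bpgm, Hebp1, Cd59a, Add1 and Mkrn1, whose windows held none. Most of the 14 genes with a window fell. The windows of Stom and Cd47, which did not pass the test, and of Aqp1, which rose, held no GATA letters either. Ank1, Dmtn, Slc4a1, Cd24a, Car2, Bsg, Car1 and Alox15 had no matched window.

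All 5 measured genes of the membrane skeleton fell. Ank1 encodes ankyrin, which ties spectrin to the anion exchanger, and its brightest probe set read 4495, 4489 and 4904 in the Rb null embryos, against 6412, 7736 and 7296 in the wild type embryos. The groups did not overlap, and the Rb null mean was 64.8% of the wild type mean (-0.62 ± 0.08, adjusted p = 0.0015). Dmtn encodes dematin, which bundles actin at the skeleton's junctions, and read 2466, 2539 and 2371 in the Rb null embryos, against 3632, 3722 and 3779 in the wild type embryos. Each genotype formed a tight cluster there, and the change was -0.58 ± 0.05, adjusted p = 3.1e-04. Epb42 encodes protein 4.2, which steadies the link between ankyrin and the anion exchanger, and read 1300.5, 1353 and 1315 in the Rb null embryos, against 1975, 2017 and 1897 in the wild type embryos. All Rb null embryos were again below all wild type embryos (-0.55 ± 0.05, adjusted p = 4.7e-04).

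Mpp1 encodes the palmitoylated protein p55 of the junctions with glycophorin C, and read 2277, 2482 and 2293 in the Rb null embryos, against 3069, 3661 and 3066 in the wild type embryos. Wild type embryo 2 was the highest of the 6 and the groups did not overlap (-0.46 ± 0.08, adjusted p = 0.0057). Add1, the alpha adducin that caps actin filaments, read 2269, 2226 and 3009.8 in the Rb null embryos, against 3454, 3237 and 3183 in the wild type embryos. Rb null embryo 3 stood close to the wild type values while Rb null embryos 1 and 2 lay far below them (-0.40 ± 0.11, adjusted p = 0.033). The Add1 call dropped out when any 1 embryo other than Rb null embryo 3 was omitted (adjusted p values 0.065 to 0.11), after quantile normalization (-0.30, adjusted p = 0.093), after cyclic loess normalization (-0.31, adjusted p = 0.069), with no filter (-0.40, adjusted p = 0.072) and with no intensity trend (-0.40, adjusted p = 0.058). Dmtn lies on chromosome 14 with Rb1, and in the RefSeq table of mouse genes 11 protein-coding genes stand between them. Without Dmtn the members' median was -0.40.

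The transport proteins did not move as a group. Slc4a1 encodes band 3, the chloride and bicarbonate exchanger to which the skeleton is anchored, and read 5748, 5596 and 6264 in the Rb null embryos, against 8052, 7906 and 8798 in the wild type embryos. The groups were well apart, and Rb null livers held 71.1% of the wild type signal (-0.49 ± 0.06, adjusted p = 0.0019). After cyclic loess normalization the change was -0.31, still past the threshold. Aqp1, a water channel of red cells that endothelium also makes, read 417, 435 and 503 in the Rb null embryos, against 271, 273 and 291 in the wild type embryos. All Rb null embryos were above all wild type embryos, and Aqp1 rose (0.61 ± 0.09, adjusted p = 0.0037). Its dimmer probe set read 109, 202 and 154 in the Rb null embryos, against 164, 140.4 and 247 in the wild type embryos. There the groups overlapped (-0.19 ± 0.21, adjusted p = 0.58), and with the mean of both probe sets the Aqp1 call was lost (0.21, adjusted p = 0.31).

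Stom encodes stomatin, an integral protein of membrane rafts that binds the glucose transporter. Its brightest probe set read 2489.6, 2371 and 2674 in the Rb null embryos, against 2745, 2612 and 2908 in the wild type embryos, and its next brightest read 2527, 2472 and 1813 in the Rb null embryos, against 1648, 2065 and 1851 in the wild type embryos. The groups overlapped on both, and the estimates pointed in opposite directions, -0.13 ± 0.07, adjusted p = 0.19 (95% interval -0.28 to 0.02) and 0.28 ± 0.13, adjusted p = 0.18 (95% interval -0.03 to 0.58). Rb null embryo 3 was the highest Rb null embryo on one and the lowest on the other. Stom passed the test only after median scaling (-0.27, adjusted p = 0.036), which moved all genes down by a median of 0.13 on the log2 scale.

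Of 6 blood group and surface proteins 5 fell, led by the Rh complex. Rhag encodes the Rh-associated glycoprotein, which carries ammonia or gases across the membrane and is needed to place Rh proteins there, and read 5399, 5259 and 5602 in the Rb null embryos, against 7453, 7733 and 7726 in the wild type embryos. The groups did not overlap (-0.49 ± 0.05, adjusted p = 5.3e-04). Rhd, the single Rh polypeptide gene of the mouse, read 3567, 3713 and 3855 in the Rb null embryos, against 5265, 5399 and 5781 in the wild type embryos. Its change was close in size to that of Rhag (-0.56 ± 0.06, adjusted p = 5.8e-04), at 67.7% and 71.0% of the wild type means. After cyclic loess normalization these changes were -0.42 for Rhd and -0.32 for Rhag.

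Cd24a, the heat-stable antigen of immature blood cells, read 9675, 9325 and 9678 in the Rb null embryos, against 11914, 13585 and 12824 in the wild type embryos. It was among the brightest members, and all Rb null values were below all wild type values (-0.41 ± 0.06, adjusted p = 0.0027), but the change shrank to -0.21 after quantile and -0.19 after cyclic loess normalization while the call was kept. Cd59a, an inhibitor of complement lysis, read 214, 298 and 312 in the Rb null embryos, against 395, 378 and 397 in the wild type embryos. Rb null embryo 1 was the lowest by far, and the other Rb null embryos still lay below every wild type embryo (-0.45 ± 0.13, adjusted p = 0.039). The Cd59a call dropped out when any 1 embryo other than Rb null embryo 3 was omitted (adjusted p values 0.064 to 0.10) and with no filter (adjusted p = 0.080).

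Bsg encodes basigin, the Ok blood group protein of human red cells and an escort of lactate transporters, and read 4467, 4279.5 and 4699 in the Rb null embryos, against 5086, 5160.1 and 5258 in the wild type embryos. The groups did not overlap, but the fall was small (-0.20 ± 0.05, adjusted p = 0.028). The Bsg call was lost after quantile (-0.08, adjusted p = 0.19) and cyclic loess normalization (-0.07, adjusted p = 0.29), with no filter (adjusted p = 0.0546), with no intensity trend (adjusted p = 0.070) and when any 1 embryo other than Rb null embryo 3 was omitted (adjusted p values 0.057 to 0.092). Cd47, the surface signal that restrains uptake by macrophages, did not pass the test. Its brightest probe set read 3679, 3422 and 2615 in the Rb null embryos, against 3235, 3326 and 3120.3 in the wild type embryos. Rb null embryo 3 was the lowest and Rb null embryo 1 the highest of the 6, so that the wild type values lay inside the Rb null range (-0.01 ± 0.11, adjusted p = 0.97, 95% interval -0.27 to 0.25). Its other probe set averaged 1308 ± 86.9 in the Rb null livers and 1229.7 ± 15.9 in the wild type livers (SD, n = 3 each; 0.08 ± 0.06, adjusted p = 0.39).

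Among the enzymes Bpgm stood out. Bisphosphoglycerate mutase makes bisphosphoglycerate, the red cell metabolite that lowers the oxygen affinity of haemoglobin. Bpgm read 806, 916 and 807 in the Rb null embryos, against 2296, 2356 and 2556 in the wild type embryos. The highest Rb null embryo was far below the lowest wild type embryo, and the Rb null mean was 35.1% of the wild type mean (-1.46 ± 0.07, adjusted p = 2.3e-05). Its 95% interval of -1.62 to -1.29 did not meet that of Ank1, the member with the next largest fall (-0.79 to -0.44). Under the alternatives the Bpgm change stayed between -1.59 and -1.36, and only 1 of the 5273 tested genes, Rb1, had a larger fall.

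The 2 carbonic anhydrases, which turn carbon dioxide into bicarbonate, differed in their calls. Car2 read 9616, 9254 and 10028 in the Rb null embryos, against 11701, 13174 and 12560.5 in the wild type embryos. All Rb null embryos were lower (-0.37 ± 0.06, adjusted p = 0.0047), and the change was -0.16 after quantile and -0.15 after cyclic loess normalization with the call kept. Car1 read 644, 662 and 581 in the Rb null embryos, against 631, 632 and 660.5 in the wild type embryos. The groups overlapped (-0.03 ± 0.07, adjusted p = 0.83), with a 95% interval of -0.20 to 0.14 that excludes the Car2 estimate of the main fit. After quantile and cyclic loess normalization Car1 was -0.09 and -0.08, and the Car2 values there lie inside that interval. The difference between the 2 genes was not tested. Pklr, the pyruvate kinase gene shared by red cells and hepatocytes, read 1509, 1521 and 1418 in the Rb null embryos, against 1856, 1660.1 and 1702 in the wild type embryos. The groups did not overlap and the fall was small (-0.22 ± 0.06, adjusted p = 0.039).

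The Pklr call dropped out when any 1 embryo other than wild type embryo 2 was omitted (adjusted p values 0.073 to 0.12), after cyclic loess normalization (-0.19, adjusted p = 0.070), with no filter (-0.22, adjusted p = 0.060), with no intensity trend (-0.22, adjusted p = 0.071) and when its probe sets were averaged (-0.15, adjusted p = 0.14). The annotation does not say which of the red cell and liver transcripts each Pklr probe set reads. Alox15, a lipoxygenase that in rabbit reticulocytes attacks mitochondrial membranes and in mice is also made by macrophages and eosinophils, rose. It read 309, 283 and 292 in the Rb null embryos, against 135, 111 and 163 in the wild type embryos. All Rb null values were higher (0.90 ± 0.13, adjusted p = 0.0025). The wild type mean of 136 lay below the filter of 150.1, so that Alox15 entered the test through its Rb null values and the size of the rise is uncertain.

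The 3 remaining members fell. Hebp1, which encodes a cytosolic haem-binding protein, read 1950.1, 1816 and 1952 in the Rb null embryos, against 2742, 2853 and 2920.5 in the wild type embryos. The groups were far apart (-0.56 ± 0.06, adjusted p = 4.9e-04). Mkrn1, a RING finger ubiquitin ligase, read 3092, 3066 and 2978 in the Rb null embryos, against 3839.8, 3826 and 3564 in the wild type embryos. All Rb null embryos were below all wild type embryos (-0.29 ± 0.05, adjusted p = 0.0068), and a dimmer probe set changed more, at 725, 666 and 769 in the Rb null embryos, against 1099, 988 and 1053 in the wild type embryos (-0.51 ± 0.07, adjusted p = 0.0029). After cyclic loess normalization the Mkrn1 change was -0.19 (adjusted p = 0.0487).

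Hemgn, a nuclear protein of haematopoietic cells that GATA1 is known to activate, read 5929, 6016 and 5839 in the Rb null embryos, against 6870.4, 6803 and 6859.7 in the wild type embryos. Values within each genotype were close together, and the fall was small (-0.21 ± 0.04, adjusted p = 0.015). Its call was lost after quantile (-0.03, adjusted p = 0.69) and cyclic loess normalization (-0.04, adjusted p = 0.58), with no intensity trend (adjusted p = 0.0504) and when its probe sets were averaged (adjusted p = 0.068). Omitting Rb null embryo 1 also ended it (adjusted p = 0.0540), and so did omitting wild type embryo 3 (adjusted p = 0.055).

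Of the 33 member probe sets 30 were tested, and 20 fell, against 9.08% of all tested probe sets, and 2 rose, against 12.8%. The 3 Ank1 probe sets all fell, by 0.62, 0.47 and 0.27 on the log2 scale, and each kept the genotypes apart. The dimmest of them averaged 1390.03 ± 57.0 in the Rb null livers and 1689.8 ± 31.8 in the wild type livers (SD, n = 3 each). The second Pklr probe set read -0.08 (adjusted p = 0.64) and the second Hemgn probe set -0.39 (adjusted p = 0.17), and neither passed the test. Stom, Aqp1 and Cd47 had estimates of opposite sign. The other probe sets of Epb42, Mkrn1 and Stom lay below the filter, with means over all arrays between 14.1 and 124, and were not tested. Several probe sets have a suffix letter, as those of Ank1, Hemgn and Rhag all do, and some such letters mark probes that can bind other transcripts.

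**Figure D3:**
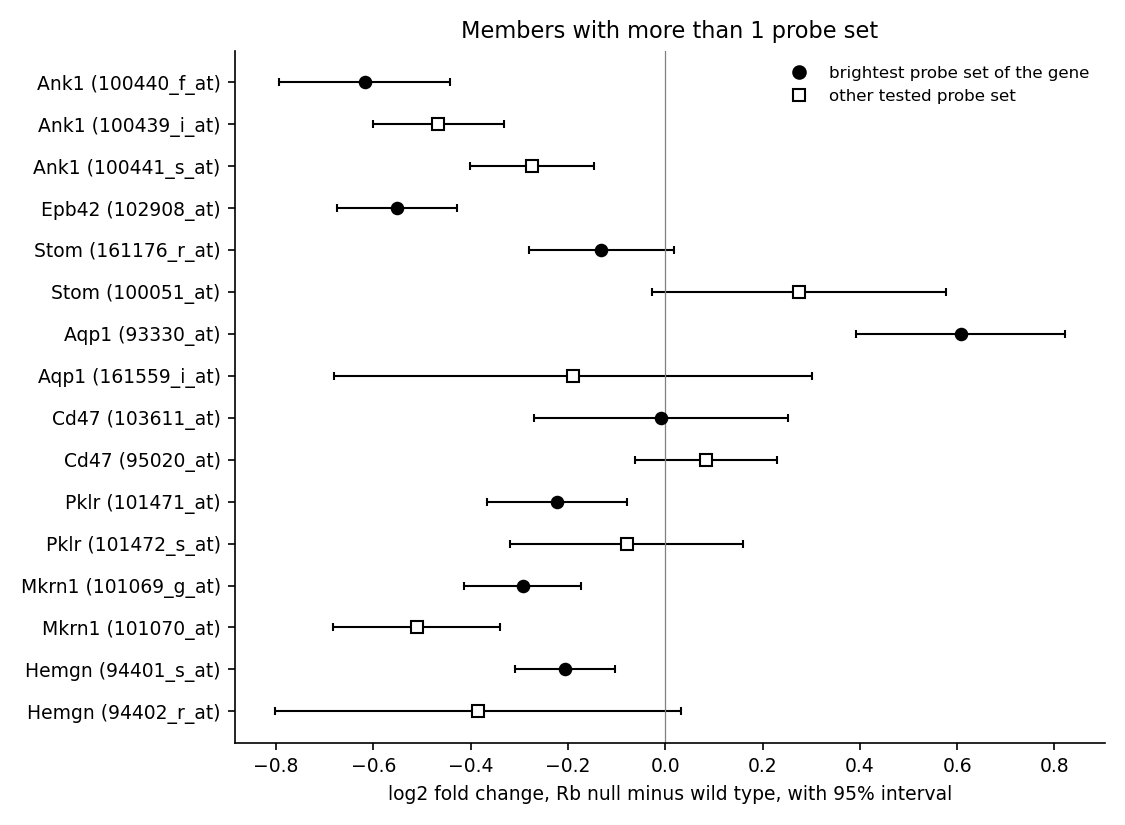
Log2 fold change (Rb null minus wild type) with its 95% interval on the horizontal axis for each tested probe set of the members that have more than 1. Filled circles are the brightest probe set of a gene and open squares the others; all 3 Ank1 probe sets lie below 0, whereas those of Stom, Aqp1 and Cd47 lie on both sides of it.

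Across the alternatives 12 falls held throughout, those of Bpgm, Ank1, Dmtn, Hebp1, Rhd, Epb42, Rhag, Slc4a1, Mpp1, Cd24a, Car2 and Mkrn1, under every setting in which each was tested. The rise of Alox15 was also kept in each setting that tested it. Its wild type mean of 136 lay below the filter, so that Alox15 entered the main test through its Rb null values. The 5 other falls and the rise of Aqp1 were lost under at least 1 setting, and a minimum change of 1.2-fold ended the calls of Bsg, Hemgn and Pklr. The number of members called lower was 14 after quantile and 13 after cyclic loess normalization, which take out the lean of bright probe sets, and the median was -0.26 and -0.25 there, against medians over all tested genes of -0.02 and -0.01. In those fits 8.76% and 8.27% of all tested genes were called lower.

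**Figure D4:**
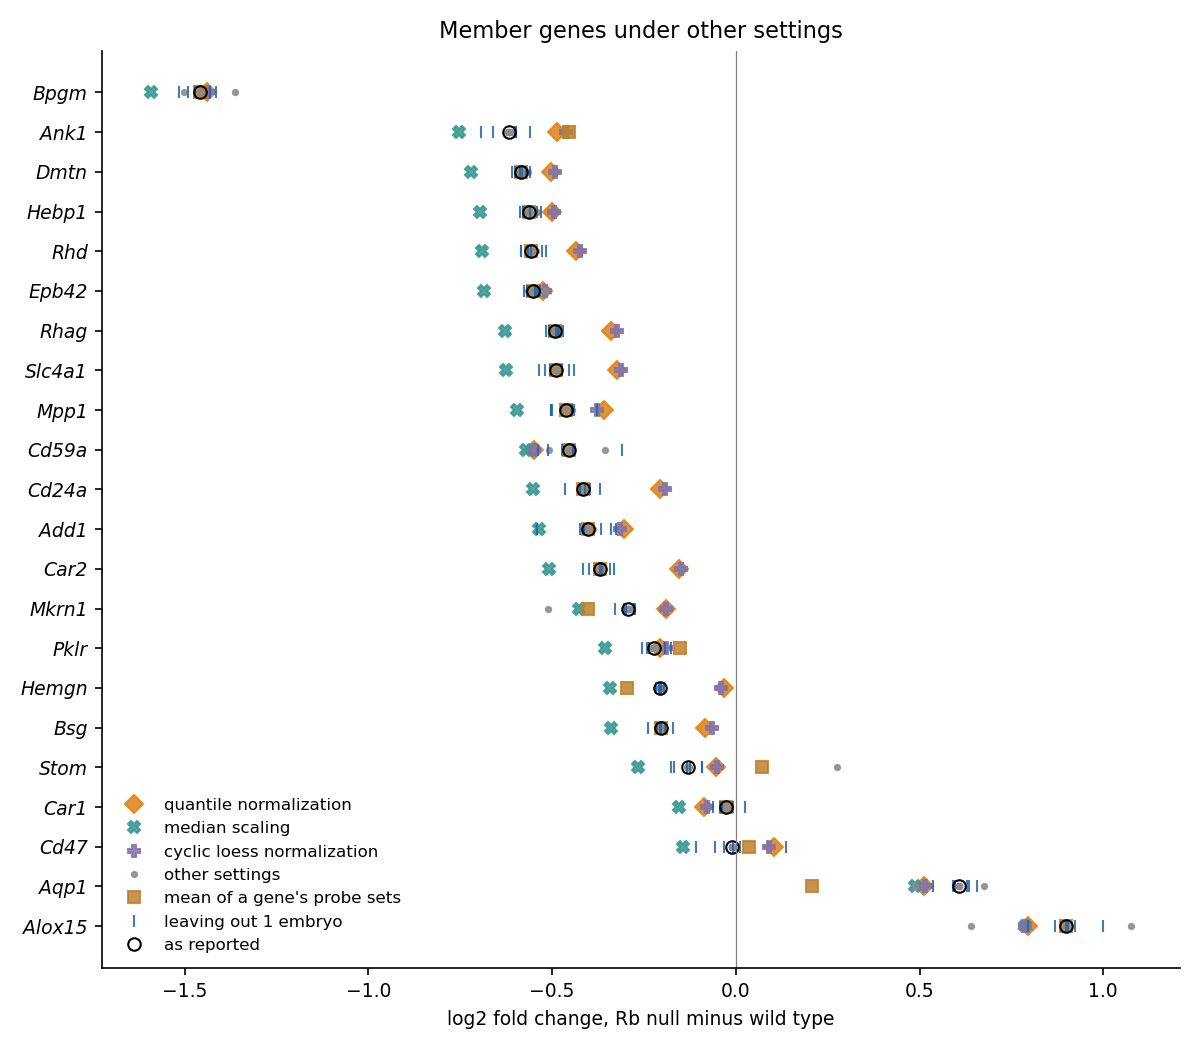
Log2 fold change (Rb null minus wild type) of each member as reported (open circle) and under the other settings, with normalizations, the mean of probe sets and the leaving out of single embryos marked. Only Stom, Car1 and Cd47 have values on both sides of 0, and Bpgm stays between -1.59 and -1.36.

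Other red cell genes, listed with earlier results of these data known, were mixed. Of 23 tested genes of other membrane proteins 6 fell and 5 rose (median 0.02), beside 9.50% and 13.1% of all tested genes. The falls included Ackr1, the Duffy chemokine receptor (-0.60 ± 0.09, adjusted p = 0.0036), Kcnn4, the calcium-gated potassium channel of red cells (-0.50 ± 0.07, adjusted p = 0.0022), the glucose transporter gene Slc2a1 (-0.39 ± 0.10) and Actb (-0.85 ± 0.22). The Actb value comes from a dim probe set with a suffix letter, whose means were 230 in Rb null livers and 467 in wild type livers. How well that probe set reads the Actb transcript was not tested. The largest rises were those of the glucose transporter gene Slc2a3 (0.82 ± 0.12), the ankyrin gene Ank3 (0.52 ± 0.10), the spectrin gene Sptan1 (0.49 ± 0.13) and the tropomyosin gene Tpm4 (0.48 ± 0.05). Ank3 and Sptan1 are relatives, widely made outside red cells, of the red cell ankyrin and spectrin. The calls of Slc2a1 (adjusted p values from 0.0510 to 0.081), Actb (0.0508 to 0.070) and Sptan1 (0.055 to 0.11) were lost on leaving out single embryos, and that of Ank3 when its probe sets were averaged (adjusted p = 0.087). With no filter the calls of Slc2a1 (adjusted p = 0.056), Actb (adjusted p = 0.062) and Sptan1 (adjusted p = 0.065) were lost too, and after cyclic loess normalization those of Slc2a1 (-0.31, adjusted p = 0.0540) and Sptan1 (0.42, adjusted p = 0.0531). Sptan1 dropped out as well under quantile normalization (0.40, adjusted p = 0.059) and median scaling (0.36, adjusted p = 0.0511). The embryos in question for Slc2a1 were Rb null embryos 2 and 3 and wild type embryos 1 and 3, for Actb any but wild type embryo 1, and for Sptan1 any but Rb null embryo 3 and wild type embryo 2.

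Of 24 tested genes of other red cell enzymes 6 fell and 5 rose (median 0.01), beside the same shares of 9.50% and 13.1% over all tested genes. The largest falls were those of Gss (-0.43 ± 0.09), Pgd (-0.37 ± 0.09), Uros (-0.32 ± 0.06) and Prdx2 (-0.31 ± 0.06). The largest rises were those of the glycolytic enzyme genes Pgam1 (0.57 ± 0.07, adjusted p = 0.0012), Pgk1 (0.56 ± 0.05, adjusted p = 4.3e-04), Pfkl (0.45 ± 0.06) and Tpi1 (0.24 ± 0.07). Other glycolytic enzyme genes of the list did not pass, namely Hk1 (0.01 ± 0.13), Pfkm (0.01 ± 0.07) and Ldha (0.14 ± 0.09), while Aldoa rose (0.24 ± 0.06) and the member Pklr fell. Hk1, Pfkm, Ldha and Aldoa were named after their values were seen. Bpgm and Pgk1 share a substrate, and Bpgm fell where Pgk1 rose. No metabolite was measured, and RNA from whole livers does not show whether both signals came from the same cells. The Prdx2 call was lost after quantile (-0.08, adjusted p = 0.14) and cyclic loess normalization (-0.09, adjusted p = 0.093). The Pgd call was lost without Rb null embryos 2 or 3 or wild type embryos 1 or 3 (adjusted p values from 0.0528 to 0.065), and the Tpi1 call without any embryo except wild type embryo 2 (adjusted p values from 0.0507 to 0.13), after median scaling (adjusted p = 0.29), with no filter (adjusted p = 0.092), with no intensity trend (adjusted p = 0.081) and with the replicate block (adjusted p = 0.062). A minimum change of 1.2-fold ended the Tpi1 call too.

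Of 15 tested genes of reticulocyte maturation 6 fell and none rose past the threshold in limma (median -0.20), beside 9.50% lower and 13.1% higher among all tested genes. The largest falls were those of Xpo7, a nuclear exportin of maturing erythroblasts (-1.27 ± 0.06), Ube2o, a ubiquitin enzyme that clears reticulocyte proteins (-0.86 ± 0.06), Tent5c, a poly(A) polymerase (-0.74 ± 0.06), and Ube2l6, a conjugating enzyme of the ubiquitin and ISG15 pathways (-0.73 ± 0.09). Their adjusted p values ran from 1.8e-05 for Xpo7 to 0.0017 for Ube2l6. Xpo7, like Dmtn, lies on chromosome 14 with Rb1, with 7 protein-coding genes between them.

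Markers of the liver's cell types were read beside the members. The erythroid markers were present, with 4 of 6 lower and none higher, beside 9.50% lower and 13.1% higher among all tested genes. Their summed signals were 37996 to 42373 in Rb null livers and 47926 to 51992 in wild type livers. Klf1, the master regulator of red cell genes (-0.60 ± 0.06), and Alas2, the erythroid enzyme of haem synthesis (-0.49 ± 0.06), fell, as did Hbb-b2 (-0.25 ± 0.06) and Gata1 (-0.25 ± 0.06), while Hba-a1 (-0.23 ± 0.07) and Epor (-0.13 ± 0.12) did not pass. For the other cell types the counts stand beside 9.50% lower and 13.1% higher among all tested genes, and the lists are short. There were 0 lower and 3 higher of 4 for megakaryocytes (summed signals 2504 to 2960.5 in Rb null livers and 1523 to 1631 in wild type livers), 0 lower and 3 higher of 10 for macrophages (6167 to 6626 in Rb null livers and 5307 to 5894 in wild type livers), and 0 lower and 3 higher of 8 for endothelium (4860.3 to 5346 in Rb null livers and 4048 to 4216 in wild type livers). The endothelial count includes Emcn, whose wild type mean of 136 lay below the filter, so that it was tested through its Rb null mean of 231. The counts were 0 lower and 4 higher of 8 for mesenchyme (12772 to 14579.7 in Rb null livers and 10241 to 10648 in wild type livers), 0 lower and 5 higher of 8 for granulocytes (11741 to 11832 in Rb null livers and 8994 to 9146 in wild type livers), 0 lower and 3 higher of 6 for progenitors (5669 to 6036 in Rb null livers and 4437 to 4638 in wild type livers) and 2 lower and 2 higher of 12 for hepatoblasts (41021 to 43460.3 in Rb null livers and 43131 to 46683 in wild type livers). Summed signals weigh the brightest genes most. The markers were read only in the main fit. Their calls were not seen under quantile or cyclic loess normalization, which take out the lean of bright probe sets. Among the markers that fell, Hbb-b2, Alb and Apoa1 were bright, with wild type means of 14729, 15834 and 10637. The median log2 fold change was 0.13 over the hepatoblast markers and -0.25 over the erythroid markers.

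Some defining markers lay below the filter, namely Pf4, Pecam1, Adgre1, Marco, Des, Vim, Meis1, Hoxa9 and Ctsg, whose brightest probe sets averaged between 27.2 and 143 over the 6 arrays. The endothelial marker Kdr (0.66 ± 0.08, adjusted p = 0.0015) rose, as Aqp1 did, and the macrophage marker Lyz2 (0.48 ± 0.10) rose, as Alox15 did. The granulocyte marker Ltf (0.77 ± 0.12) rose too. These 3 markers were chosen after their values were seen, and each had the largest rise of its list. Not past the threshold were 5 of 8 endothelial, 7 of 10 macrophage and 3 of 8 granulocyte markers. The part of cell composition in the changes of Aqp1, Alox15 and the members that fell was not tested.

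**Figure D5:**
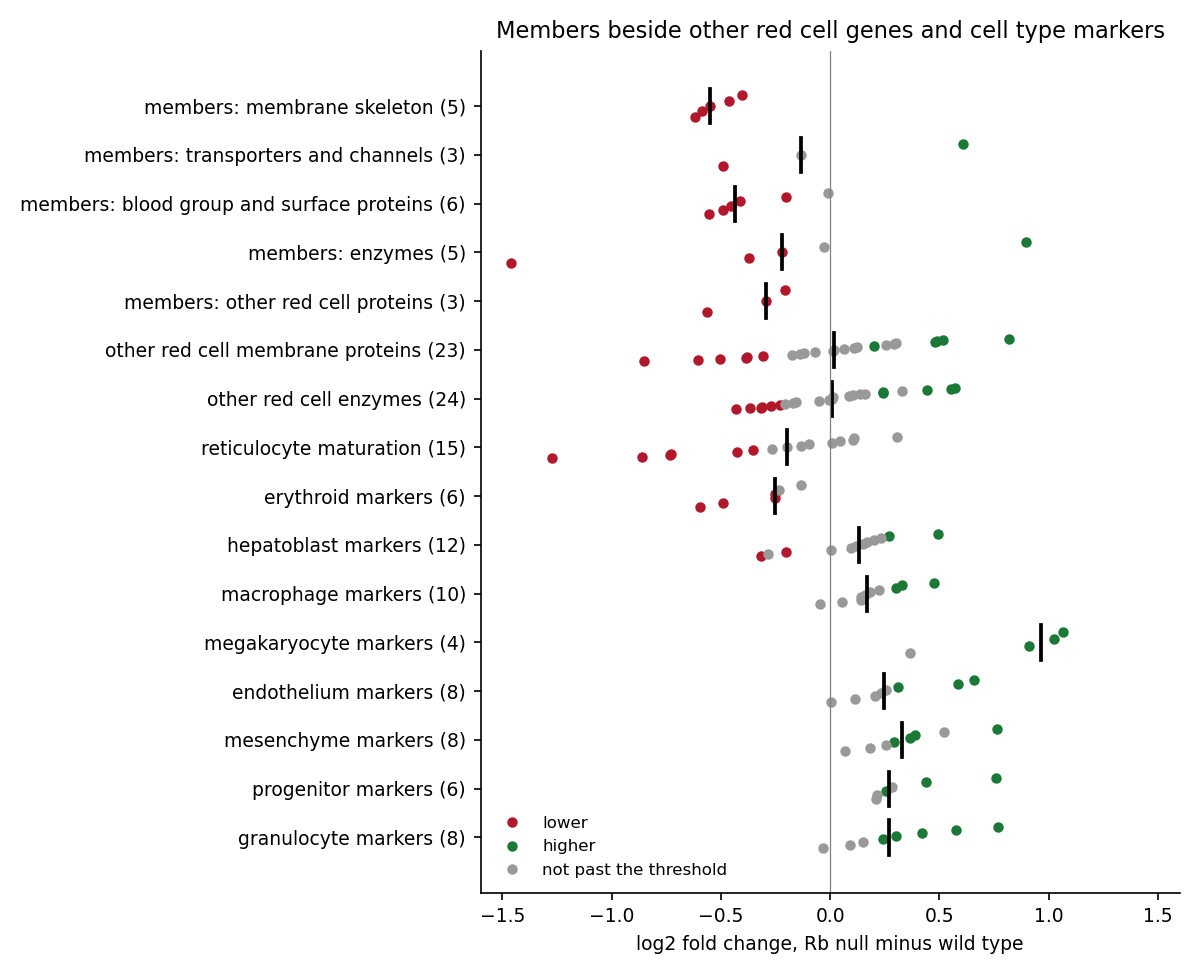
Log2 fold change (Rb null minus wild type) of each tested gene, with 1 row per list, members by role at the top, then other red cell genes and cell type markers; the number of tested genes is in brackets and the vertical bar is the list's median. Red points were lower, green higher and grey did not pass the test; the membrane skeleton genes lie between -0.62 and -0.40, and the megakaryocyte markers all above 0.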

How the data were processed

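RNA from whole fetal livers of 3 Rb null and 3 wild type embryos was read on 1 array each. The deposited intensity values were made by the authors with MAS5, per the submitters' processing notes, and are linear signals, 1 per probe set. The software version and scaling target are not given in the sources used here. The platform annotation gave 10833 probe sets 1 gene symbol, 396 several and 1193 none, and 66 controls were left out. Before log2, 50.02 was added to each signal (an offset set at 0.1 of the arrays' trimmed mean), and the 6793 probe sets with a mean above 150.1 (0.3 of it) were tested with limma 3.58.1 in R 4.3.3 (two-sided moderated test with an intensity trend, Benjamini-Hochberg adjustment, threshold 0.05). The samples entered as Rb null against wild type with no covariate; a gene stands by its brightest probe set, and 5273 genes were tested. No set test was made. The procedure was tested on simulated data.

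The members and all lists were chosen with earlier results of these data known. All members were to be named, and from the other lists the 4 genes past the threshold with the largest change in each direction. Replicates are separate embryos. Alternatives were quantile, median and cyclic loess normalization, offsets of 10.00 and 150.1, no filter and one of 500.2, no or a robust trend, the replicate block, averaged probe sets per gene, no suffixed probe sets, a 1.2-fold minimum and leaving out each embryo. Leaving out Dmtn was added after seeing the data.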

Additional observations from a re-analysis of the deposited data

How the results depend on the processing

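The number of members called lower, 17 as reported, lay between 12 and 18 over the alternatives. The lowest counts, 12, came without Rb null embryo 1 and without wild type embryo 3; leaving out each embryo gave counts from 12 to 16 and medians from -0.43 to -0.35. The number of members called higher was 2 except for 1 with averaged probe sets and 0 with the stricter filter, where neither Aqp1 nor Alox15 was tested and so no unadjusted p exists in limma. The median of the members was -0.26 after quantile normalization, -0.25 after cyclic loess and -0.54 after median scaling, which moved the median of all tested genes to -0.10; without Dmtn it was -0.40. Among all tested genes, median scaling gave 1093 lower and 366 higher calls (25.1% of calls higher), against 501 and 690 as deposited (57.9%). The stricter filter gave 44.5% of calls higher. The counts over all tested genes were 291 lower and 418 higher without Rb null embryo 1, 294 and 407 without Rb null embryo 2, and 258 and 467 without wild type embryo 3. Leaving out single embryos gave 258 to 429 lower and 407 to 552 higher, and no intensity trend 357 and 654. Values that changed sign were all of genes that did not pass. Cd47 was 0.10 after quantile normalization, 0.090 after cyclic loess and 0.037 on averaging its probe sets, and ranged from -0.11 to 0.14 on leaving out single embryos, turning positive without Rb null embryo 3 (0.14) and without wild type embryo 2 (0.013). Stom was 0.072 on averaging its probe sets and 0.28 without suffixed probe sets, and Car1 was 0.026 without Rb null embryo 3, within -0.062 to 0.026. Without suffixed probe sets Ank1, Hemgn and Rhag had no value. With no filter and with no intensity trend 13 members were lower, beside 4.22% and 6.77% of all tested genes. The causes of these changes were not tested. With the replicate block 17 members were lower and 2 higher, with a median of -0.41, and of all tested genes 488 were lower and 639 higher; it ended the Tpi1 call (adjusted p = 0.062) and no other call among the members and the named genes of the other red cell lists; the markers were not read under the block. Same-numbered embryos had deviations correlated at -0.06, 0.07 and 0.27, so the numbers were not taken to pair them, and not every embryo correlated best with its own number.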
